A study of Mus musculus with 13 samples.

Results

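The BCL2 family decides whether a cell's mitochondria release the factors that start apoptosis, and 10 of its genes were followed here in CD4+CD8+ (double-positive, DP) thymocytes with and without the cohesin subunit Rad21. The genes were selected by symbol: the pro-survival members Bcl2, Bcl2l1 and Mcl1, the effectors Bax and Bak1, and the BH3-only members Bcl2l11, Bmf, Bbc3, Pmaip1 and Bid. All 10 were found among the 17849 genes of the RNA-seq table, and all 10 were among the 12003 genes abundant enough to test. The RNA came from 2 wild type and 2 Rad21 KO samples of sorted DP thymocytes, the mouse T cell precursors that carry both coreceptors. The labels give these 4 samples a genotype and a replicate number but no strain, age, sex or number of animals, and give neither the method of the Rad21 deletion nor the cells that carry it. Because they do not state that the samples of a genotype came from separate animals, the p-values reflect only the differences among these 4 libraries, and these may be technical.

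Pro-survival BCL2 proteins hold the effectors in check, and the effectors, once free, oligomerise and open the outer mitochondrial membrane. BH3-only proteins respond to stress or to signals and either occupy the pro-survival proteins or engage the effectors. DP thymocytes are short-lived unless their antigen receptor is positively selected. Their survival is known to depend on BCL-XL, the product of Bcl2l1, and on MCL1, and BIM, the product of Bcl2l11, is known for the removal of self-reactive thymocytes.

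The members that changed most in the knockout included Bbc3 and Bcl2l11, which rose, and Bmf, which fell, and the start of each is shown together with that of Bcl2l1, the pro-survival gene with the largest difference. The windows are from RefSeq, build GRCm38.p6, and run from 250 bases before to 50 bases after an annotated gene start, 5′ to 3′ on the strand of the gene. In all, 16 such windows of 9 of the 10 members were read, and the first one listed for each gene shown is printed. No window of Pmaip1, the member that rose furthest, was read, so the comparison of windows lacks it. The Bbc3 window lies at chr7:16309333-16309632 on the plus strand, that of Bcl2l11 at chr2:128125788-128126087 on the plus strand, that of Bmf at chr2:118544538-118544837 on the minus strand and that of Bcl2l1 at chr2:152828440-152828739 on the minus strand. Capitals mark the GC box GGGCGG in Bbc3 and Bcl2l11, the E-box CANNTG in Bmf and the ROR element AGGTCA in Bcl2l1, each read on both strands. Other matches of the 11 motifs searched are not marked.
Bbc3: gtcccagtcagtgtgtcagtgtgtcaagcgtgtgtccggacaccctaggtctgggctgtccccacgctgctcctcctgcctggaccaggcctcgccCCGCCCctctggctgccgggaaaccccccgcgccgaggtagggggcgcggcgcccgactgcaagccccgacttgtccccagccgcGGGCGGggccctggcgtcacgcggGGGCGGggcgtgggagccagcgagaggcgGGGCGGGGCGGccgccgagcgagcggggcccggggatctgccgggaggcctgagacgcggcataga
Bcl2l11: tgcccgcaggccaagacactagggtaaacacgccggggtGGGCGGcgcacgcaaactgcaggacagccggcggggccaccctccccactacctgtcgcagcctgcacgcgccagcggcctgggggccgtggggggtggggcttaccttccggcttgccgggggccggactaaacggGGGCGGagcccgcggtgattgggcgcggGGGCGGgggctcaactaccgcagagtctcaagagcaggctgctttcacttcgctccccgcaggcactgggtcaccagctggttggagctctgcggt
Bmf: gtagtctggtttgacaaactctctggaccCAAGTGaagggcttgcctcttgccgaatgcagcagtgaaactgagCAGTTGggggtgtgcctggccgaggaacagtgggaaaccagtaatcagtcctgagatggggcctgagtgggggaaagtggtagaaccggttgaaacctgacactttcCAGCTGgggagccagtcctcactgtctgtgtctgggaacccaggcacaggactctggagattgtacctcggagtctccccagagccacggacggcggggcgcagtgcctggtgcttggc
Bcl2l1: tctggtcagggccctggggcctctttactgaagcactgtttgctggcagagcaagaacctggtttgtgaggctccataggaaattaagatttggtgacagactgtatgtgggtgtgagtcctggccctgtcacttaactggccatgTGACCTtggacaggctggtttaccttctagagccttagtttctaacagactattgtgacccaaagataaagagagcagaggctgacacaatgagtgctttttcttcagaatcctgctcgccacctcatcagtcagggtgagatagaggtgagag

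The windows of the risen genes Bbc3 and Bcl2l11 and of the fallen gene Bmf differed in base composition. The 3 Bbc3 windows held 74.7% to 78.0% G and C and the 2 Bcl2l11 windows 71.0% and 74.0%, while the 3 Bmf windows held 53.3% to 58.7% and the 3 Bcl2l1 windows 49.3% to 55.7%. The median of all 32851 windows in the RefSeq table was 52.7%. Composition does not follow the direction of change across the family: the Bcl2 window, of a gene that did not pass the test, held 76.0%. The printed Bbc3 window holds 5 GC boxes and the printed Bcl2l11 window 3, where 35.7% of all windows hold at least 1. GC boxes are not particular to the risen genes. Of the members that did not pass, the Bcl2 window holds 7, those of Bid and Bax 3 each and that of Mcl1 1. The Bak1 window and the 3 Bcl2l1 windows hold 0. The printed Bmf window has 0 GC boxes, and 1 of its 3 windows has 1. It has 3 E-boxes, a short motif that 72.3% of all windows contain. The ROR element in the printed Bcl2l1 window, read here on the opposite strand as TGACCT, occurs in 16.3% of all windows, and the other 2 Bcl2l1 windows lack it. The second Bmf window also holds it. The p53 motif matched 1 Bmf and 1 Bax window and 0 of the 3 Bbc3 windows, against 8.36% of all windows. The forkhead motif TGTTTAC matched the printed Bcl2l11 window and the second Bbc3 window, against 3.65% of all windows. The NF-κB motif GGGRNNYYCC matched the printed Bbc3 and Bmf windows and the second Bcl2l1 window, against 8.46%. These matches describe letters in short windows and are not evidence that a factor binds there.

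Each value below is a level in CPM (counts divided by the library's total, on a common scale), scaled between libraries by the trimmed mean of M values (TMM). Library totals lay between 6500819 and 9384505 counts. Lars2 and Gm15564 together made up 34.5% of Rad21 KO replicate 1, 12.6% of Rad21 KO replicate 2, and 5.84% and 7.47% of the wild type libraries, and without them the totals were 6015242 to 6245781. Rad21 itself stood at 67.9 and 65.7 CPM in the knockout and 271 and 233 in wild type, so both knockout libraries carried less of its RNA. Of the 11 markers fixed for DP thymocytes all were detected and tested, and 4 were lower in the knockout and 0 higher. Of all 12003 tested genes, 5.17% were called lower and 7.6% higher. The summed level of the DP markers was 11652 to 13223 CPM in the knockout and 15907 to 17476 in wild type. Markers of mature single-positive T cells summed to 243 to 261 CPM in the knockout and 177 to 178 in wild type, with 3 of 6 tested genes higher, 1 lower and Il7r at 0 and 8 counts in the knockout and 14 and 8 in wild type. The 5 markers of double-negative cells summed to 55.2 to 60.4 CPM against 29.4 to 34.8, with 2 of 4 tested higher. These were Dtx1 (34.8 and 26.3 CPM in the knockout, 5.74 and 7.20 in wild type) and Hes1, at 3 and 0 counts in wild type. Il2ra (log2 fold change -0.03) and Il1rl1 (-0.78) did not pass. The 5 thymic epithelial markers summed to 24.6 to 28.6 against 17.3 to 17.8 CPM, with 1 of 2 tested, Epcam, higher (log2 fold change 3.08) and Foxn1 at 0 to 2 counts in every library. Myeloid markers summed to 18.6 to 25.3 against 31.3 to 36.7 CPM with 1 of 5 tested lower, and of the B cell, erythroid and NK cell markers, 2 tested in each list, 0 passed by edgeR, with sums of 17.5 to 20.4 against 18.6 to 21.9, 2.05 to 4.03 against 3.05 to 3.28 and 15.9 to 21.1 against 12.5 to 13.9 CPM. At an unadjusted p under 0.05 in edgeR, 1 NK cell marker was higher and 0 B cell or erythroid markers differed, beside 3532 of all 12003 tested genes. The B cell marker Ms4a1 had at most 1 count in any library. The part of these cell markers, and of the Lars2 and Gm15564 share, in the values of the BCL2 family was not tested beyond the removal of these 2 genes and of single libraries. In bulk RNA, fewer cells of a type and less RNA per cell cannot be told apart.

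Of the 10 family members, 4 passed an adjusted p of 0.05, and all 4 are BH3-only genes: Pmaip1, Bbc3 and Bcl2l11 were higher in the knockout and Bmf was lower. That is 40% of the members, where 12.8% of the 12003 tested genes were called, 7.6% higher and 5.17% lower. The 3 pro-survival genes and the 2 effectors did not pass. The members' median log2 fold change was -0.19 and that of all tested genes -0.01. In 8 members the knockout and wild type libraries did not overlap, 4 above and 4 below, against 58.9% of all tested genes in either direction. Since the members were picked with earlier results of these data known, these counts describe the family and were not tested as a set.

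**Figure D1:**
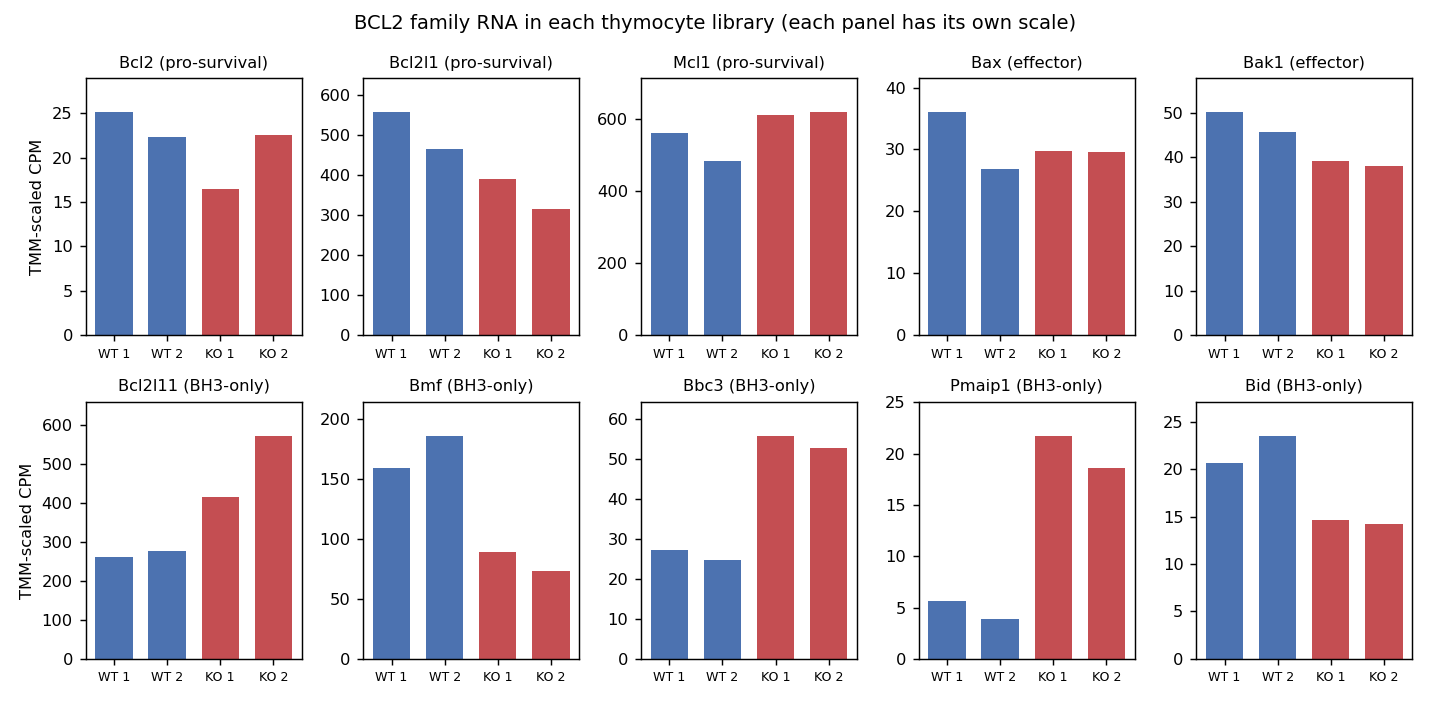
Level of each BCL2 family gene (TMM-scaled CPM, y axis from 0, own scale per panel) in the 2 wild type (blue) and 2 Rad21 KO (red) libraries; each bar is 1 library. Pmaip1, Bbc3 and Bcl2l11 have both red bars above both blue bars and Bmf has both below, while the libraries of Bcl2 and of Bax overlap.

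Pmaip1 (ENSMUSG00000024521) encodes NOXA, a BH3-only protein that binds MCL1 and is a known target of p53. Its level was 5.60 and 3.88 CPM in wild type replicates 1 and 2, from 41 and 28 counts, and 21.8 and 18.6 CPM in the knockout, from 159 and 134 counts. Both knockout libraries stood far above both wild type libraries. The log2 fold change was 2.09 (SE 0.25, 95% interval 1.5 to 2.67, edgeR quasi-likelihood adjusted p = 0.00391), a 4.25-fold difference. By size of rise it ranked 127 among the 12003 tested genes. Leaving out any single library gave log2 fold changes of 1.84 to 2.37.

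Bbc3 (ENSMUSG00000002083) encodes PUMA, a BH3-only protein that binds all the main pro-survival proteins and is likewise known as a p53 target and as a mediator of glucocorticoid-induced thymocyte death. It stood at 27.2 and 24.8 CPM in wild type and at 55.8 and 52.7 in the knockout. The replicates of each genotype lay close together and the groups were well apart. Its log2 fold change was 1.06 (SE 0.13, 95% interval 0.75 to 1.38, edgeR quasi-likelihood adjusted p = 0.00461), a 2.09-fold rise, and 0.99 to 1.13 with any library left out.

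Bcl2l11 (ENSMUSG00000027381) encodes BIM, which binds every main pro-survival protein and can activate BAX and BAK. Wild type libraries had 261 and 276 CPM and the knockout libraries 414 and 572. The knockout replicates differed from each other by more than the wild type replicates did, but the lower of them was still above the higher wild type library. The rise was 1.84-fold, a log2 fold change of 0.88 (SE 0.16, 95% interval 0.51 to 1.25, edgeR quasi-likelihood adjusted p = 0.0157). It was 0.64 without Rad21 KO replicate 2 and 1.10 without replicate 1, and called in both. With no filter on low counts the call was lost (adjusted p = 0.081 in edgeR).

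Bmf (ENSMUSG00000040093) encodes a BH3-only protein that is known to be held on the actin and myosin V motor complex through a dynein light chain. It was the member that fell: 159 and 186 CPM in wild type against 89.1 and 73.4 in the knockout. Both knockout libraries lay well below both wild type libraries. The log2 fold change was -1.09 (SE 0.14, 95% interval -1.41 to -0.76, edgeR quasi-likelihood adjusted p = 0.00485), so wild type had 2.12 times the knockout level. Without any single library it lay between -1.22 and -0.94, always past the threshold.

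Bid differs from the other BH3-only members in that its protein is known to be activated by caspase-8 cleavage, which links death receptors to mitochondria. Its levels were 20.6 and 23.5 CPM in wild type and 14.6 and 14.2 in the knockout, with no overlap. The log2 fold change of -0.62 (SE 0.17, 95% interval -1.02 to -0.21) did not pass the threshold (edgeR quasi-likelihood adjusted p = 0.0607), nor did it in any of the 11 alternative settings. The interval, which is for this gene alone and not corrected for the number of genes, lies below 0.

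Among the pro-survival genes, Bcl2l1 (ENSMUSG00000007659) differed most between genotypes. It was at 557 and 464 CPM in wild type and 389 and 314 in the knockout, so that the groups did not overlap while the replicates of each group were also apart. The log2 fold change of -0.54 (SE 0.14, 95% interval -0.88 to -0.20) narrowly missed the threshold (edgeR quasi-likelihood adjusted p = 0.0519). It passed in 7 of 11 alternative settings and not in the other 4, with adjusted p from 0.00567 in DESeq2 to 0.161 in edgeR without wild type replicate 1.

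Mcl1 encodes a pro-survival protein with a very short life. The gene had 560 and 484 CPM in wild type and 610 and 619 in the knockout. All the knockout values lay above the wild type values, but the gap was smaller than the distance between the wild type replicates. The log2 fold change was 0.24 (SE 0.11, 95% interval -0.03 to 0.50, edgeR quasi-likelihood adjusted p = 0.213). That interval allows a rise of up to 0.50, and its lower bound lies close to 0. The value was 0.13 without wild type replicate 2 and 0.34 without wild type replicate 1.

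Bcl2, the founding member of the family, is known to be low in DP thymocytes and higher in the stages before and after. It gave 25.1 and 22.3 CPM in wild type and 16.4 and 22.5 in the knockout, and the groups overlapped. The log2 fold change of -0.29 (SE 0.20, 95% interval -0.76 to 0.19, edgeR quasi-likelihood adjusted p = 0.396) ranged from -0.07 without Rad21 KO replicate 1 to -0.51 without replicate 2. Knockout replicate 1 was the lowest library and alone set most of the difference.

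Neither effector passed the test. Bax was at 36.1 and 26.9 CPM in wild type and 29.7 and 29.6 in the knockout, both inside the wild type range, with a log2 fold change of -0.09 (SE 0.18, 95% interval -0.50 to 0.33, edgeR quasi-likelihood adjusted p = 0.792). Its sign turned without wild type replicate 1 (0.14). Bak1 was at 50.1 and 45.6 CPM in wild type and 39.0 and 37.9 in the knockout, without overlap. Its log2 fold change was -0.31 (SE 0.13, 95% interval -0.62 to -0.01, edgeR quasi-likelihood adjusted p = 0.156), and it passed in 0 of 11 alternative settings.

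**Figure D2:**
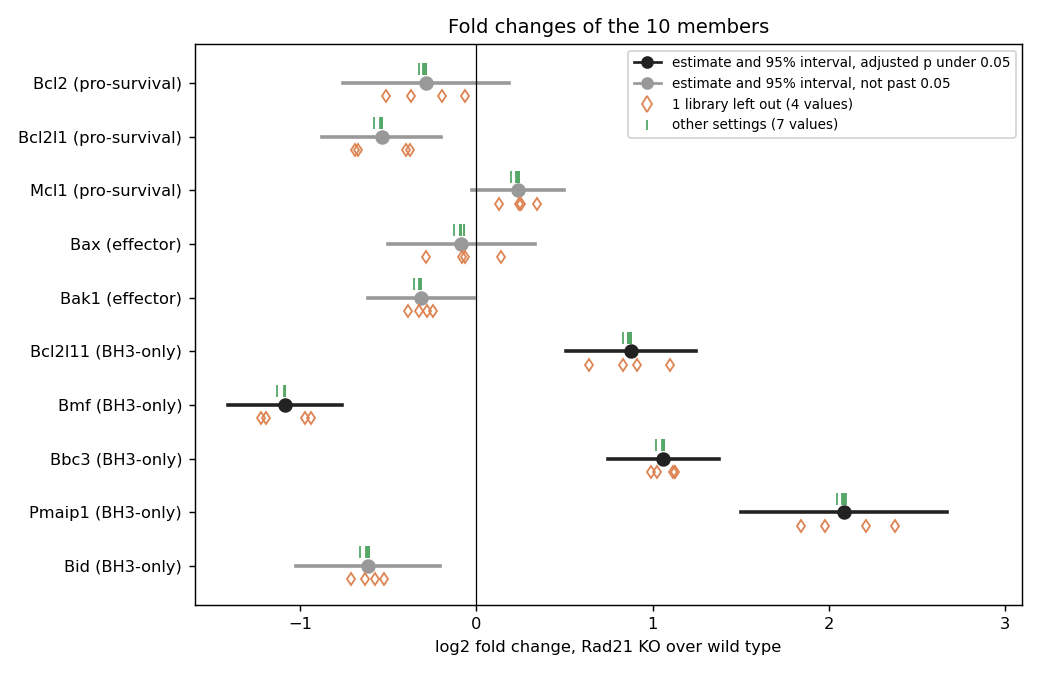
Log2 fold change of Rad21 KO over wild type for each member (x axis), with its 95% interval, black where the adjusted p is under 0.05; orange diamonds leave out 1 library each and green ticks are the 7 other settings. The 4 black intervals, all of BH3-only genes, stay away from 0, those of Bcl2l1, Bid and Bak1 lie below 0 without passing, and a diamond of Bax crosses 0.

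The balance between members was also read within each library, where scaling between libraries has no part. Such a ratio of counts depends on transcript lengths, so only its change between libraries was compared, with no test: 2 against 2 libraries cannot give an exact two-sided permutation p below 0.333. The ratio of Bcl2l11 to Bcl2l1, the BIM gene against the BCL-XL gene, was 0.468 and 0.595 in wild type and 1.07 and 1.82 in the knockout, 2.71 times higher on average. The ratio of Bcl2l11 to Mcl1 was 0.466 and 0.570 in wild type and 0.679 and 0.924 in the knockout. Both ratios were higher in each knockout library than in each wild type library. For Bcl2l11 to Bcl2l1 that order restates the single genes, since Bcl2l11 was higher and Bcl2l1 lower in each knockout library.

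Ratios to Mcl1 rose for the genes of NOXA and PUMA as well. Pmaip1 to Mcl1 went from 0.01 and 0.00801 to 0.0357 and 0.0301, and Bbc3 to Mcl1 from 0.0486 and 0.0512 to 0.0916 and 0.0851. For Bmf the ratio to Mcl1 was 0.284 and 0.384 in wild type and 0.146 and 0.119 in the knockout. Bmf to Bcl2l11, a pair of BH3-only genes, shifted most of the 8 ratios computed, from 0.609 and 0.674 to 0.215 and 0.128, so that wild type stood 3.73 times higher. No other ratio computed set the called lower gene against a called higher one, so this rank follows from the pairs picked. Between the pro-survival genes, Mcl1 to Bcl2l1 was 1.00 and 1.04 in wild type and 1.57 and 1.97 in the knockout. For Bmf to Mcl1, Bmf to Bcl2l11 and Mcl1 to Bcl2l1 the order of the libraries restates the single genes. The ratios of Pmaip1 and Bbc3 to Mcl1 use the same counts as the single-gene values and are not separate evidence.

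The summed RNA of the family hardly moved while its makeup shifted. The 10 genes together gave 1702 and 1557 CPM in wild type and 1679 and 1754 in the knockout, with overlap. Of the counts of the 10 genes, Bcl2l11 took 15.3% and 17.7% in wild type and 24.7% and 32.6% in the knockout, and Bcl2l1 32.7% and 29.8% against 23.2% and 17.9%. Mcl1 took 32.9% and 31.1% against 36.3% and 35.3%. These shares weigh longer transcripts more.

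**Figure D3:**
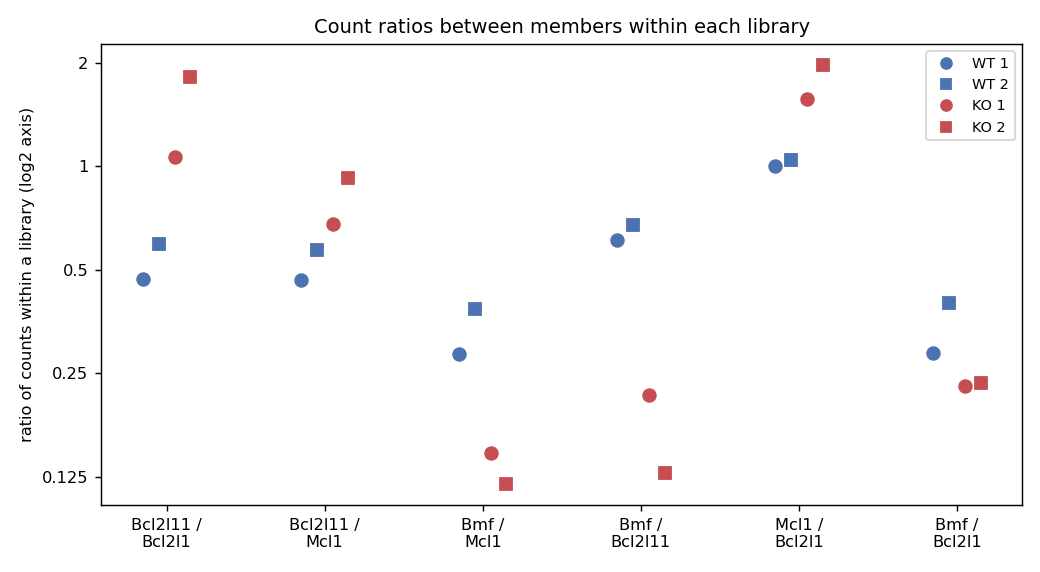
Ratio of the counts of 2 members within each library (log2 y axis), wild type in blue and Rad21 KO in red, circles for replicate 1 and squares for replicate 2. Both knockout points lie above both wild type points for Bcl2l11 to Bcl2l1, Bcl2l11 to Mcl1 and Mcl1 to Bcl2l1, and below them for the 3 ratios with Bmf on top.

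The other genes of the family that were tested did not pass. Of 16 listed, 13 were in the table and 7 were tested, of which 0 passed by edgeR's quasi-likelihood test, DESeq2 or limma-voom. At an unadjusted p under 0.05 in edgeR, 3 were lower and 1 higher. Of all 12003 tested genes, 3532 reached that p in either direction. The median log2 fold change of the 7 tested genes was -0.67. The tested genes of this list with the most counts were the mitophagy receptor gene Bnip3l, at 169 and 128 CPM in wild type and 187 and 194 in the knockout, and Bcl2l13, at 91.7 and 87.3 against 97.6 and 103. Bad and Bik, both BH3-only genes chosen after their values were seen, had log2 fold changes of -0.77 and -1.54 without passing (edgeR adjusted p = 0.0577 and 0.0738). Bik passed without Rad21 KO replicate 2 (-2.36) and Bnip3l without wild type replicate 1 (0.57). Hrk, Bok and Bcl2l14, also named after their values were seen, had at most 7 counts in every library.

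Downstream of the mitochondria, 4 of 20 tested genes of the caspase and apoptosome list passed, 1 higher and 3 lower, with a list median of -0.14. Of all tested genes 12.8% were called, 7.6% higher and 5.17% lower, and the list was not tested as a set. Casp6, an executioner caspase, fell from 39.5 and 38.1 CPM to 22.4 and 21.8 (log2 fold change -0.81). Birc3, which encodes the ubiquitin ligase cIAP2 and is known as an NF-κB target, rose from 67.5 and 65.2 CPM to 97.5 and 155 (0.93). The call of Birc3 was lost with the replicate number as a block (0.89), and its rise came to 0.57 on dropping Rad21 KO replicate 2 and to 1.24 on dropping Rad21 KO replicate 1, both log2. Apaf1, the scaffold that BAX and BAK activity leads to, and Cflar, the inhibitor of caspase-8, were called lower at -0.43 and -0.53. Apaf1 was no longer called when any 1 library was dropped (-0.38 to -0.47), and Cflar was not called without Rad21 KO replicate 2 (-0.34), nor without wild type replicate 2 (-0.48). Apaf1 and Cflar also lost their calls with the replicate block, and these and Birc3 with no filter on low counts. DESeq2 did not call Apaf1 (-0.43). Cflar was not called with median-ratio size factors (-0.52), nor without Lars2 and Gm15564 (-0.53). The initiator caspase gene Casp9, named after its values were seen, had a log2 fold change of -0.09 without passing.

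On the death receptor side, 3 of 8 tested genes passed, 2 higher and 1 lower, beside 12.8% of all tested genes. Tnfsf10, the gene of the ligand TRAIL, rose from 17.5 and 19.7 CPM to 30.4 and 34.5, a log2 fold change of 0.80, and its call was lost without wild type replicate 1 (0.72). The kinase gene Ripk1 had 0.71 and the adaptor gene Traf2 -0.50. Ripk1 lost its call without Rad21 KO replicate 2 (0.58), wild type replicate 1 (0.59) or wild type replicate 2 (0.83), and Traf2 without the same libraries (-0.41, -0.49 and -0.52). With no filter on low counts Tnfsf10, Ripk1 and Traf2 all lost their calls. Ripk1 was also not called with upper-quartile scaling (0.67) or in DESeq2 (0.71), nor Traf2 with the replicate block (-0.50). Fas stood at -0.25 without passing.

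Among 23 tested genes known to regulate BCL2 family genes or proteins, 4 rose and 2 fell, beside 7.6% and 5.17% of all tested genes. Foxo3, a forkhead factor known to activate Bcl2l11 and Bbc3, rose from 242 and 234 CPM to 384 and 388 (log2 fold change 0.70), and Foxo1 from 34.3 and 59.8 to 121 and 160 (1.58). Nr4a1, whose nuclear receptor product NUR77 is switched on by T cell receptor signals, had the largest difference of the list (2.21). The NF-κB subunit gene Rela rose by 0.63, a call that needed both Rad21 KO replicate 2 (0.56 when dropped) and wild type replicate 2 (0.53 when dropped). Myb, known to sustain Bcl2l1 in DP cells, fell by 0.54 on the log2 scale, and Fbxw7, part of a ubiquitin ligase for MCL1, by 0.44. Leaving out Rad21 KO replicate 1 (-0.45), wild type replicate 1 (-0.55) or wild type replicate 2 (-0.54) ended the call of Myb, and leaving out any library ended that of Fbxw7 (-0.41 to -0.46). Rela, Myb and Fbxw7 also lost their calls with no filter on low counts and with the replicate block. Foxo1 lost its call with no filter (1.58), and DESeq2 did not call Fbxw7 (-0.44).

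Regulators named after their values were seen include Trp53, which had 118 and 93.2 CPM in wild type and 123 and 120 in the knockout (log2 fold change 0.21, and 0.042 without wild type replicate 2 or 0.38 without wild type replicate 1). The p53 target Mdm2 was at -0.05 and the glucocorticoid receptor gene Nr3c1 at -0.11. None of these 3 passed, and the signs of Mdm2 and Nr3c1 turned on leaving out a library (0.15 for Mdm2 without Rad21 KO replicate 1 and 0.04 without wild type replicate 2, and 0.065 for Nr3c1 without Rad21 KO replicate 1).

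**Figure D4:**
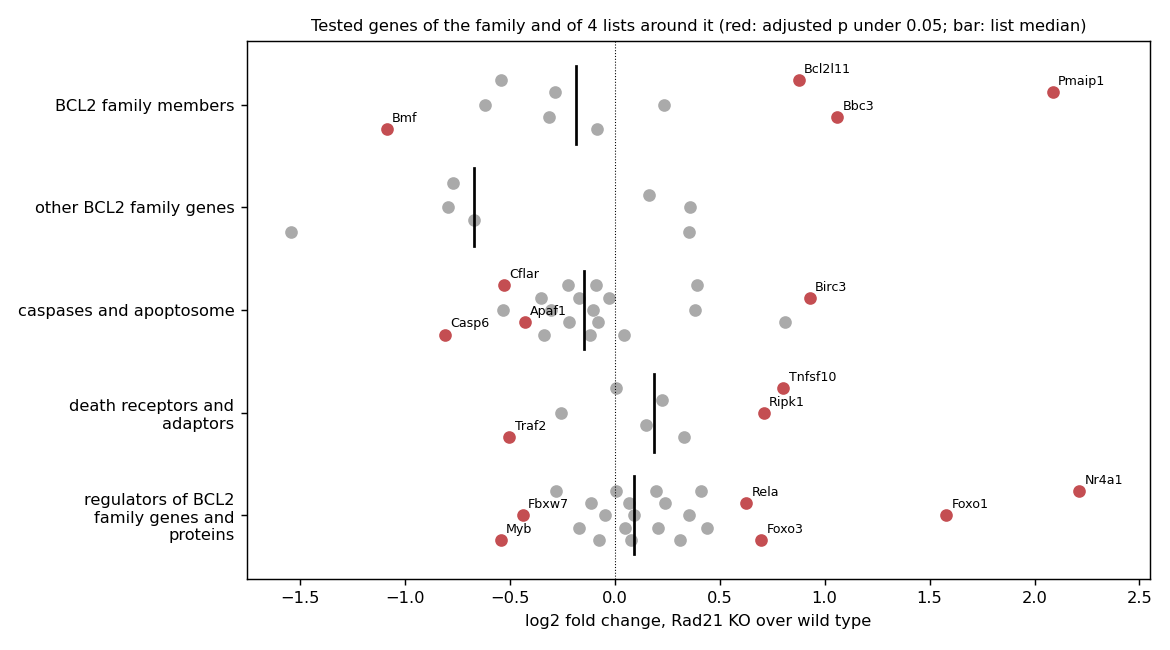
Log2 fold changes of the tested genes (x axis) of the 10 family members and of 4 lists around the family, 1 point per gene, red and named where the adjusted p is under 0.05; black bars are list medians, and vertical offsets only separate points. Of the called genes of the 4 lists, Nr4a1, Foxo1 and Birc3 lie farther from 0 than Bcl2l11, the called member with the smallest change.

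Genes that follow a member most closely over the 4 libraries were found by the distance of their centred log2 CPM, among 9821 others whose mean level reached 5 CPM. Nearest to Pmaip1, the member that rose furthest, were the small GTPase gene Gem (14.6 and 13.5 CPM in the knockout, 4.10 and 2.91 in wild type), the circadian repressor gene Ciart (17.7 and 13.8 against 4.10 and 3.46) and Acoxl. Nearest to Bmf were the unnamed gene ENSMUSG00000089979 (log2 fold change -1.16), the netrin gene Ntn1 (-1.08) and the DNA polymerase theta gene Polq (-0.98). Without Rad21 KO replicate 2, wild type replicate 1 or wild type replicate 2 the calls of ENSMUSG00000089979 (-0.98, -1.29 and -1.04) and Polq (-0.86, -1.08 and -0.88) were lost. With 4 libraries in 2 groups, many genes with a like change lie near a member by this measure.

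Acoxl is also the immediate neighbour of Bcl2l11 and overlaps it in RefSeq. It stood at 2.60 and 2.08 CPM in wild type and 9.31 and 8.90 in the knockout, a log2 fold change of 1.95 (SE 0.30, edgeR quasi-likelihood adjusted p = 0.00925). The next gene on the other side of Bcl2l11, Anapc1, had 0.00. Nothing read here states whether the counting used strand, and reads of Acoxl and Bcl2l11 may not be separate. Spans of 4 other members overlap another RefSeq gene, those of Bcl2, Bcl2l1, Bid and Bak1, while Mcl1, Bmf, Bbc3, Pmaip1 and Bax overlap 0.

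Other neighbours of the members mostly did not pass. Of the 2 nearest tested genes on either side of each member, 40 in all, 6 were higher and 0 lower, 15% against the 12.8% of all tested genes. Beside Acoxl these were Pak6 near Bmf (1.66), Ccdc9 near Bbc3 (0.91), Gnal near Pmaip1 (0.86), Itpr3 near Bak1 (0.60) and Zcchc2 near Bcl2 (0.58). The neighbour Pak6 rose while Bmf fell. Leaving out Rad21 KO replicate 1 (0.64), Rad21 KO replicate 2 (0.58) or wild type replicate 1 (0.45) ended the call of Itpr3, and Zcchc2 was not called without Rad21 KO replicate 2 (0.50), nor without wild type replicate 2 (0.53). With no filter on low counts Pak6, Itpr3 and Zcchc2 lost their calls. Itpr3 was also not called with upper-quartile scaling (0.55), nor Zcchc2 with the replicate block (0.58).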

How the data were processed

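RNA-seq of sorted DP thymocytes covered 2 Rad21 KO and 2 wild type samples. Ribosomal RNA was removed from total RNA before Illumina library preparation, per the labels' protocols. The authors deposited estimated counts (count equivalents) per Ensembl gene; the values are whole numbers, and rounding them as a precaution changed nothing. Per the submitters' processing notes the build is mm9; for the aligner, the counting program and strand the sources used here give nothing. The knockout columns spell the gene name without its first digit and were matched by the rest of the name. Within each genotype the 2 libraries differed beyond sampling noise (chi-square per degree of freedom 69.0 for knockout and 6.17 for wild type). These values used raw counts and totals with Lars2 and Gm15564 included, which made up 34.5% and 12.6% of the knockout libraries. They were not computed without these 2 genes, so they do not compare the spread of genes in general between genotypes. Of 17849 identifiers 17342 had a symbol.

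The whole table was fitted in R 4.3.3 by edgeR 4.0.16 (low counts removed by filterByExpr, TMM scaling, quasi-likelihood test of genotype, no block, Benjamini-Hochberg adjustment over 12003 genes, threshold 0.05). Intervals (95%) use the test's standard error and degrees of freedom. Alternatives were median-ratio size factors, upper-quartile scaling, DESeq2 1.42.0, limma-voom (limma 3.58.1), no filter, the replicate number as a block, each library left out, and Lars2 and Gm15564 removed. The procedure was also run on simulated counts with known changes. These had the same dispersion for every gene and did not model the uneven share of Lars2 and Gm15564. That run therefore cannot show how the procedure performs on these libraries.

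The members and lists were chosen with earlier results of these data known. Named are all 10 members, Rad21, up to 6 called genes per list by size of change (otherwise the 2 with the most counts) and the 3 genes nearest in pattern to the member that rose and the member that fell furthest. Neighbours, motifs and within-library ratios were added after the data were seen. Peak lists are in mm9 and the gene tables in GRCm38.p6, so peaks were not used here, and, since no transcript length was used, counts of different genes were ranked only to apply the naming rule.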

Additional observations from a re-analysis of the deposited data

How the results depend on the processing

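Of 110 values of the 10 members under 11 alternatives, 101 kept their direction and side of the threshold, 1 lost its call (Bcl2l11 with no filter, 0.87), 7 gained one (all Bcl2l1) and 1 turned (Bax without wild type replicate 1, 0.14, in a range of -0.29 to 0.14 with a library left out). The lower members numbered 1, or 2 with upper-quartile scaling, DESeq2, limma-voom, the replicate block or without Lars2 and Gm15564, the other being Bcl2l1, and 1 to 2 with a library left out, where all called members numbered 4 to 5 and those higher 3 in each case.

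With no filter, where 17003 genes were tested, 433 genes were called (285 higher, 148 lower), 3 list genes (2 higher, 1 lower), 1 caspase gene, 0 death receptor genes and 2 regulators. With a library left out the calls were 947 to 1438 (574 to 880 higher, 373 to 558 lower), those of the 4 lists 6 to 11 (5 to 8 higher, 1 to 3 lower), and by list 0 to 1 other family genes, 2 to 4 caspase genes, 0 to 3 death receptor genes and 3 to 5 regulators.

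No shift shared by replicate number was seen: the correlation of deviations was 0.01 over 9822 genes. With 1 such deviation per genotype, this value cannot show whether the samples were paired. With the replicate block 381 genes were lower, and 7 list genes were called (1 lower), with 2 caspase genes and 3 regulators. Signs also turned with a library left out for Mdm2 (-0.25 to 0.15, and 0.04) and Nr3c1 (-0.29 to 0.065). The cause of these shifts was not tested. Peak alternatives were not run. No setting moved the median of all genes by more than 0.1. Depth limits the sparse genes most: Pmaip1 had 28 to 159 counts per library and Bik 9 to 53.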
